A study of Mus musculus with 106 samples.

Results

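The liver response of C57BL/6J males to a high-fat diet was read from 6 liver RNA libraries, 2 of the 36 groups that the series formed by strain, sex and diet, chosen by those labels. C57BL/6J is the most widely used inbred laboratory mouse strain and carries no engineered allele here. The 3 males labelled m CD ate a chow in which fat supplied 6%, protein 20% and carbohydrate 74% of the energy. The 3 labelled m HFD ate a diet in which these shares were 60%, 20% and 20%. Feeding lasted from 8 weeks of age until the livers were taken at 21 weeks, and the mice received no other treatment. For the difference between sexes, the 3 C57BL/6J females on each diet were used, and for the difference between strains, 46 males of WSB/EiJ, PWK/PhJ, NZO/HlLtJ, NOD/ShiLtJ, DBA/2J, CAST/EiJ, A/J and 129S1/SvImJ on the same diets. The mouse numbers in the labels put the chow males and the high-fat males into separate ranges, so diet cannot be told apart from whatever those ranges stand for. Each library is 1 mouse, and whole liver was used, so that fewer cells of a type and less RNA per cell cannot be told apart.

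A high-fat diet delivers fatty acids to the liver, where they are stored as triglyceride in lipid droplets, burnt in mitochondria and peroxisomes or exported in lipoproteins. The transcription factors SREBP1 and SREBP2 drive the genes of fatty acid and cholesterol synthesis, PPARA drives those of fatty acid oxidation, and PPARG drives droplet genes in fatty livers. Mouse liver is also strongly sex-biased: the pulses of growth hormone in males, acting through STAT5, keep a male set of cytochrome P450, major urinary protein and steroid enzyme genes on and a female set off.

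Gene counts summed to between 54399491 and 57921118 in the 6 libraries, over 14330 genes. Hepatocyte markers were abundant in every library: the 8 fixed ones summed to between 86269.6 and 135518 CPM (counts scaled to library size, as edgeR gives them) on chow and between 97445 and 103216 CPM on the high-fat diet. Chow library 3 stood apart from the other 5. Over 12225 genes with a mean of at least 1 CPM, its log2 levels differed from those of chow libraries 1 and 2 by 0.64 and 0.61 (root mean square), while those 2 differed by 0.27 and the high-fat libraries differed among themselves by 0.28 to 0.40. The difference followed the length of the genes: in the shortest sixth by exonic length, chow library 3 lay 0.46 above the median of the 6 libraries on the log2 scale, and in the longest sixth it lay 0.21 below, against -0.05 to 0.04 in the others over these 2 sixths. Its part in single results was measured by leaving it out, and most counts below are given both ways. Nnt, which carries a deletion in C57BL/6J, is no check of the strain here, since a further annotated gene of that name overlaps it on the same strand and its counts, 0.602, 1.05 and 1.88 CPM on chow, are uncertain.

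**Figure D1:**
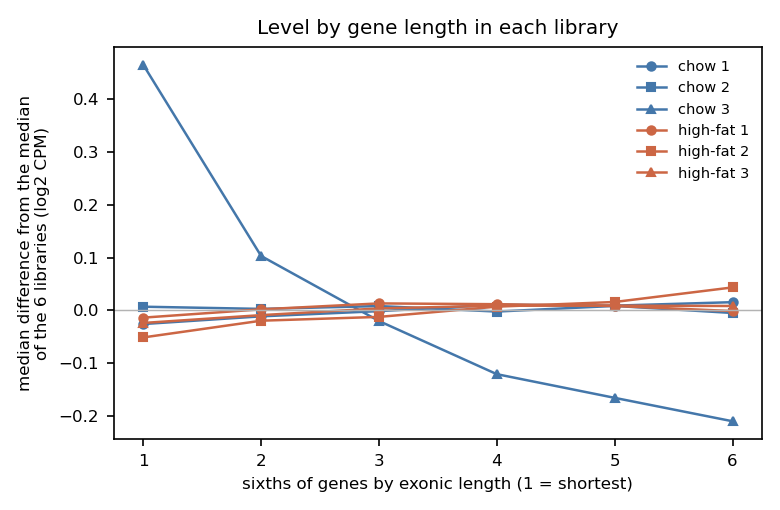
The x axis gives sixths of the genes by exonic length, the y axis the median difference of a library from the median of all 6 on the log2 CPM scale, and each line is 1 library. Chow library 3 runs from 0.46 in the shortest genes to -0.21 in the longest, and the other 5 libraries stay near 0.

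Of the 14330 genes, 1840 (12.8%) differed between the diets by edgeR's quasi-likelihood test at a Benjamini-Hochberg adjusted p under 0.05, called below. On the high-fat diet 686 of these were higher (4.79% of all genes) and 1154 lower (8.05%). The count was 666 (4.65%) without chow library 3, with 302 higher (2.11%) and 364 lower (2.54%). 559 genes were called both ways, which is 30.4% of the 1840 and 83.9% of the 666. Scaling by library totals alone in place of TMM factors turned the split to 894 higher and 706 lower. The fit of the 6 libraries alone, with its own estimate of the spread, called 375 genes (2.62%), 223 of them higher and 152 lower. Leaving out high-fat library 1 gave 1102 genes, 378 higher and 724 lower, and leaving out high-fat library 2 gave 1147, 444 higher and 703 lower. Among the 1840 the median absolute log2 fold change was 0.65, and 447 changed by at least 1, which is a doubling or more in either direction. The CPM of the groups did not overlap in 27.7% of all genes, 13.9% higher and 13.8% lower. The genes named below as the largest rises and falls were picked among called genes without overlap, so their separation is no further result. The shares over all genes given here belong beside every count of list members below. The lists were written with earlier results of these data known, so counts of their members are a description and no independent test.

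**Figure D2:**
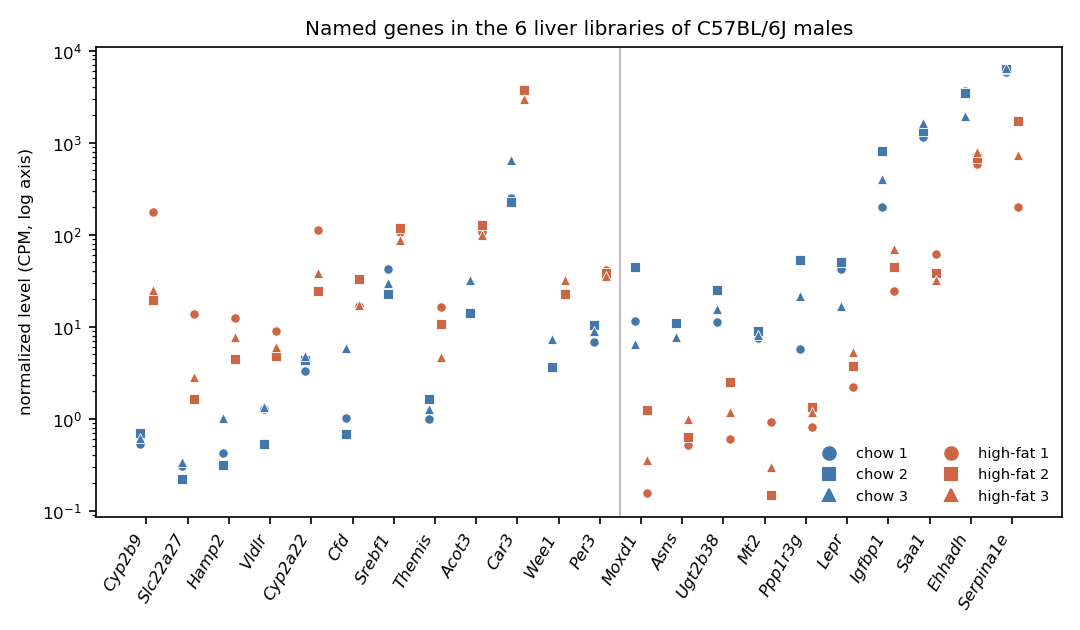
Each point is the CPM of 1 gene in 1 library, on a log axis, with chow in blue, high-fat in orange and a marker shape for each library number. In the 12 genes left of the line every high-fat library lies above every chow library, and in the 10 genes right of it every high-fat library lies below. For the genes named as the largest rises and falls, this separation was a condition of their choice.

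**Figure D3:**
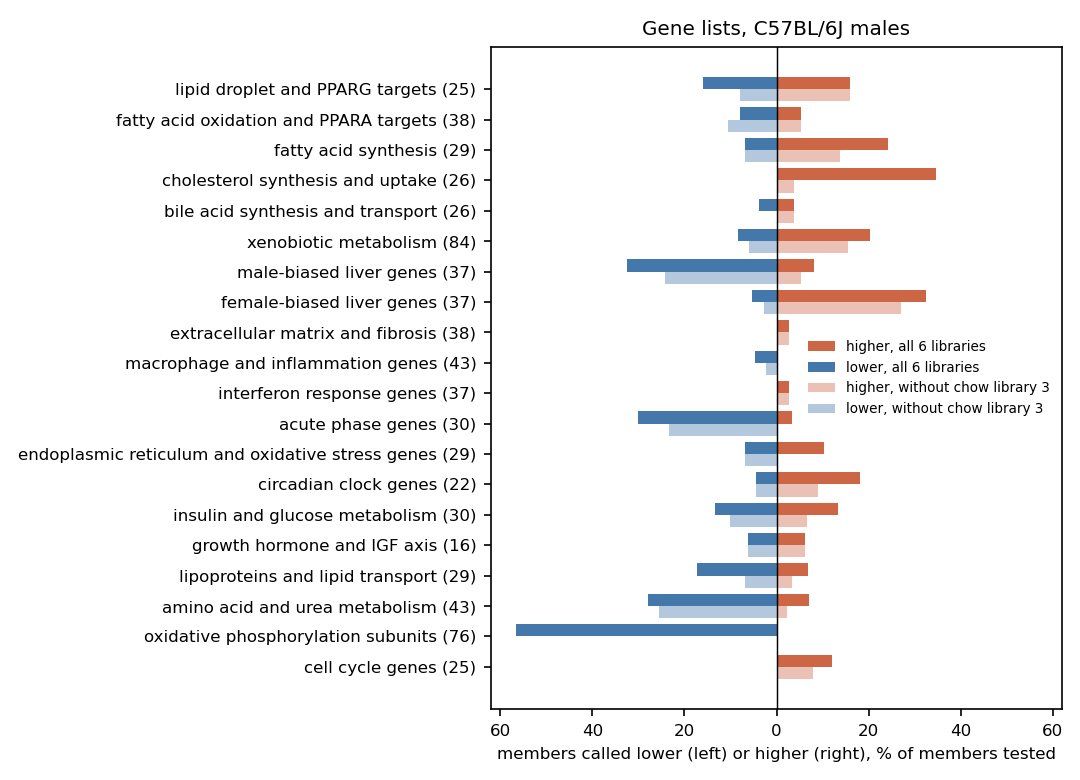
Bars give the share of the members of each gene list, with the number tested in parentheses, called lower (to the left) or higher (to the right) on the high-fat diet, in full colour with all 6 libraries and in pale colour without chow library 3. The list of oxidative phosphorylation subunits goes from 43 of 76 members lower to 0, while the falls of the male-biased list go from 12 to 9 and the rises of the female-biased list from 12 to 10.

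The 4 largest rises among the named genes were in genes known as female-biased in mouse liver. Cyp2b9 (ENSMUSG00000040660, chromosome 7, 26173411 to 26210661 in GRCm38), a cytochrome P450 of female liver, was at 0.529, 0.699 and 0.620 CPM in chow libraries 1, 2 and 3 and at 178, 19.5 and 25.0 CPM in the high-fat libraries. All 3 high-fat mice lay far above all 3 chow mice, and high-fat library 1 lay well above the other 2. The means were 0.616 ± 0.0851 CPM and 74.1 ± 89.8 CPM (SD, n = 3 each), and the log2 fold change was 6.91 ± 0.59 (SE, adjusted p 1.70e-14 by edgeR). It kept its call in every fit with 1 of the 6 libraries left out, with adjusted p-values of at most 1.16e-10.

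2 female-biased organic anion transporters of the Slc22a family rose likewise. Of the 15 family members tested, counted after their values were seen, 3 rose and 0 fell, against 4.79% and 8.05% of all genes. Slc22a29 went from 0.0912, 0.184 and 0.0428 CPM to 6.56, 1.01 and 1.21 CPM, a log2 change of 4.73 ± 0.68 (SE, adjusted p 1.45e-06 by edgeR). Slc22a27 went from 0.310, 0.221 and 0.342 CPM to 13.8, 1.62 and 2.84 CPM, a log2 change of 4.38 ± 0.71 (SE, adjusted p 1.57e-05 by edgeR). In both genes the groups did not overlap and high-fat library 1 was the highest. Hamp2 (ENSMUSG00000056978, chromosome 7, 30922372 to 30924681), a relative of the iron hormone gene Hamp, was at 0.420, 0.313 and 1.03 CPM on chow and 12.6, 4.42 and 7.79 CPM on the high-fat diet, with a log2 fold change of 3.84 ± 0.74 (SE, adjusted p 0.000201 by edgeR). Cyp2a22, a cytochrome P450 of unclear role, was at 3.34, 4.40 and 4.83 CPM on chow and 113, 24.4 and 38.7 CPM on the high-fat diet, again with high-fat library 1 on top (log2 fold change 3.81 ± 0.56 SE, adjusted p 2.56e-06 by edgeR).

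Of the 37 female-biased genes listed, 12 rose and 2 fell, and without chow library 3 the counts were 10 and 1. With the 6 libraries alone they were 9 and 4. Among all genes 4.79% rose and 8.05% fell, or 2.11% and 2.54% without chow library 3. The median log2 fold change of the list was 0.16, against -0.01 over all genes, and 18 of the 37 fitted changes were negative. The groups did not overlap in 12 members that were higher and in 7 that were lower, against 13.9% and 13.8% of all genes. Summed over the list, the level was 7882 to 9505 CPM on chow and 3903 to 5818 CPM on the high-fat diet, so the sum was lower in every high-fat mouse. The other risers were Abcd2, a peroxisomal transporter, Acot3, an acyl-CoA thioesterase, Atp6v0d2, a proton pump subunit, Ntrk2, a neurotrophin receptor, Cd36, Vldlr, Cyp2a4 and Cyp2b13. Cyp2c40 and Cyp2c69, both P450 genes, fell, the latter from 1.62, 2.59 and 2.31 CPM to 0.258, 0.202 and 0.196 CPM (log2 fold change -3.30 ± 1.04 SE, adjusted p 0.0246 by edgeR). Cyp2c69 lost its call without chow library 3 or any 1 high-fat library (adjusted p-values of 0.0749 to 0.0839).

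High-fat library 1 alone carried 2 of these calls. Cyp2a4 was at 1.09, 1.14 and 1.54 CPM on chow and 31.8, 0.478 and 1.23 CPM on the high-fat diet, and Cyp2b13 at 0.0730, 0.202 and 0.171 CPM and 2.15, 0.221 and 0.142 CPM. High-fat libraries 2 and 3 lay in or near the chow range for both, and without library 1 their adjusted p-values were 0.761 and 0.912. Cyp2b13 was not called without chow library 1 or 3 either. Without high-fat library 1, 7 female-biased genes rose in place of 12, while over all genes 378 rose in place of 686. Abcd2 lost its call whichever library was left out (adjusted p 0.0615 to 0.111), and Cd36 and Ntrk2 lost theirs without high-fat library 1 (adjusted p 0.0937 and 0.0572). Counts in the Cyp2a, Cyp2b and Cyp2c families may be shared between close copies, which makes single members uncertain. Cyp2b10, the phenobarbital-inducible member, was at 0.967, 0.626 and 0.342 CPM and 1.33, 0.258 and 0.587 CPM, with overlapping groups and no call (adjusted p 0.950).

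Among male-biased genes falls outnumbered rises. Of the 37 listed, 12 fell and 3 rose, against 8.05% and 4.79% of all genes, with a median log2 fold change of -1.20. Without chow library 3 the counts were 9 and 2 with a median of -0.94. With the 6 libraries alone 8 fell and 2 rose. Moxd1 (ENSMUSG00000020000, chromosome 10, 24223517 to 24302790), a monooxygenase-like gene of unknown substrate, had the largest fall of all named genes. It was at 11.5, 44.5 and 6.41 CPM on chow and at 0.155, 1.23 and 0.356 CPM on the high-fat diet, so the lowest chow mouse lay above the highest high-fat mouse. The log2 fold change was -5.17 ± 0.78 (SE, adjusted p 4.05e-06 by edgeR), and the highest adjusted p with 1 library left out was 0.000424.

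Other male-biased genes fell too. Ugt2b38, which couples glucuronic acid to steroids and drugs, went from 11.3, 25.3 and 15.6 CPM to 0.603, 2.52 and 1.17 CPM (log2 fold change -3.61 ± 0.38 SE, adjusted p 1.10e-10 by edgeR). Serpina1e (ENSMUSG00000072849, chromosome 12, 103946931 to 103958975), one of the mouse alpha-1-antitrypsin genes and among the 5 most abundant genes that fell, went from 5887, 6256 and 6405 CPM to 199, 1715 and 726 CPM (log2 fold change -2.81 ± 0.48 SE, adjusted p 3.62e-05 by edgeR). The chow libraries lay close together in Serpina1e, while the high-fat libraries were far apart. Cspg5, a membrane proteoglycan, went from 2.75, 2.17 and 4.43 CPM to 0.327, 0.570 and 0.551 CPM (log2 fold change -2.68 ± 0.45 SE, adjusted p 2.26e-05 by edgeR), and Cib3, a calcium-binding protein gene, from 9.94, 17.7 and 17.3 CPM to 0.499, 3.13 and 1.55 CPM (log2 fold change -3.12 ± 0.62 SE, adjusted p 0.000310 by edgeR). The other called members were C6 and C8b, parts of the complement attack complex, Cyp7b1, Egfr, Gstp1, Mup1 and Mup11. Car3, Gna14, a G protein subunit, and Hsd3b2, a steroid dehydrogenase, rose although they stand in the male list, Gna14 only in the fits without chow library 2 or high-fat library 3 among those with 1 library left out.

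Without high-fat library 1 the male list had 6 falls in place of 12, while over all genes 724 fell in place of 1154. C8b, Egfr and Mup11 were then not called (adjusted p 0.0620, 0.0921 and 0.0748), nor were C6, Cyp7b1 and Mup1, which lost their calls in 3 or 4 of the fits. 3 further male-biased genes were not called. Hsd3b5, a steroid dehydrogenase, was at 5.13, 6.29 and 28.6 CPM on chow and 0.896, 116 and 45.2 CPM on the high-fat diet, so high-fat library 1 was the lowest and library 2 the highest of the 6 (adjusted p 0.114). Slco1a1, an organic anion transporter, showed the same split, at 236, 194 and 302 CPM and 62.3, 354 and 297 CPM. Cyp4a12a, a testosterone-dependent hydroxylase, did not overlap, at 224, 305 and 252 CPM and 72.4, 118 and 76.1 CPM, but was not called (adjusted p 0.184).

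The major urinary proteins, abundant pheromone carriers made by male liver, were counted as a family after their values had been seen. 10 of 20 genes fell and 0 rose, against 8.05% and 4.79% of all genes, with a median log2 fold change of -1.56. The falls were 7 without chow library 3, 5 without high-fat library 1 and 6 without high-fat library 3. With the 6 libraries alone 0 of the 20 were called, at a median of -1.55. Summed over the family, the level was 16773 to 33649 CPM on chow and 7886 to 15746 CPM on the high-fat diet, without overlap. Mup20, the male pheromone darcin, was at 4594, 6537 and 11754 CPM and 2227, 3616 and 2843 CPM and was not called (adjusted p 0.171). The Mup genes are near copies of each other, so the split of counts between them is uncertain.

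The next list holds genes of growth hormone signalling. Of 16 genes of the growth hormone and IGF axis, 1 rose and 1 fell, against 4.79% and 8.05% of all genes. Prlr, the prolactin receptor, rose from 53.8, 45.0 and 49.6 CPM to 122, 109 and 140.1 CPM (log2 fold change 1.32 ± 0.35 SE, adjusted p 0.00689 by edgeR). Lepr, the leptin receptor, fell from 42.4, 50.8 and 16.8 CPM to 2.19, 3.77 and 5.30 CPM (log2 fold change -3.29 ± 0.92 SE, adjusted p 0.00969 by edgeR), and without high-fat library 1 its adjusted p was 0.0663. Ghr, the growth hormone receptor, was at 291, 302 and 376 CPM and 507, 574 and 528 CPM, without overlap and without a call (adjusted p 0.0632).

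The start regions of Moxd1 and Hamp2, the male and female genes with the clearest change for which such a match was found, are shown because both hold the letters TTCNNNGAA, the core that STAT5 binds. The motif is its own reverse complement, was chosen after the values were seen, and stood in 6.95% of the 13578 windows of 300 bases that RefSeq gives for genes of the table. In the male list 5 of 30 windows held it, 1 of them among the 11 windows of called genes. In the female list it was 5 of 35, and 1 of the 14 windows of called genes. The windows reach from 250 bases before to 50 after the annotated start, 5′ to 3′, with the motif in capitals, at chr10:24223267-24223566 (plus strand) and chr7:30924132-30924431 (minus strand) of GRCm38.p6.
Moxd1: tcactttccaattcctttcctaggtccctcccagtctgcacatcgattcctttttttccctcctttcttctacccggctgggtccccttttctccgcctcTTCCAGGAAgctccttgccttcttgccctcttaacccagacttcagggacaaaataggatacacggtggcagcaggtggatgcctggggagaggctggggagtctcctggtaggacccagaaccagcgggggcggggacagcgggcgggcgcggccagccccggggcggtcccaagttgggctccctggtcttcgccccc
Hamp2: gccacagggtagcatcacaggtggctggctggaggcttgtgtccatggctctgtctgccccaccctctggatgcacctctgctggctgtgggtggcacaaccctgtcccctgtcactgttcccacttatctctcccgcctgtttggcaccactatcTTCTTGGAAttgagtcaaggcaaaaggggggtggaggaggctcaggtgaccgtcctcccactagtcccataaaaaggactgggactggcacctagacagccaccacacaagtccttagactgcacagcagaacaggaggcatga
The match is a description of the letters only, and binding was not measured.

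Genes of lipid storage changed in both directions, and 3 of the 4 risers serve fatty acid uptake or triglyceride synthesis. Vldlr (ENSMUSG00000024924, chromosome 19, 27216484 to 27254231), the receptor for very low density lipoprotein, went from 1.28, 0.534 and 1.33 CPM to 8.92, 4.86 and 6.03 CPM (log2 fold change 2.66 ± 0.44 SE, adjusted p 1.70e-05 by edgeR). Cd36, a fatty acid transporter, went from 47.6, 55.8 and 65.0 CPM to 198, 109 and 102 CPM (log2 fold change 1.28 ± 0.33 SE, adjusted p 0.00550 by edgeR). Dgat2, which adds the last fatty acid to triglyceride, went from 422, 433 and 406 CPM to 757, 679 and 846 CPM (log2 fold change 0.86 ± 0.18 SE, adjusted p 0.000821 by edgeR). In all 3 genes the groups were apart. Cidea, a droplet fusion protein of fat tissue, was at 0.219, 0.386 and 0.727 CPM on chow and 6.11, 1.49 and 0.676 CPM on the high-fat diet, so that high-fat library 3 lay just below chow library 3. Its log2 fold change of 2.65 ± 0.54 (SE, adjusted p 0.000444 by edgeR) rested on high-fat library 1, without which the adjusted p was 0.124.

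The 4 falls were in genes of droplet proteins and lipid breakdown. Hsd17b13, a droplet-bound dehydrogenase, went from 711, 761 and 1050.2 CPM to 583, 443 and 489 CPM (log2 fold change -0.74 ± 0.13 SE, adjusted p 6.48e-05 by edgeR) and kept its call in every leave-one-out fit. Cidec, the relative of Cidea that enlarges droplets, went from 96.6, 143 and 66.3 CPM to 47.3, 15.3 and 20.0 CPM (log2 fold change -1.89 ± 0.65 SE, adjusted p 0.0397 by edgeR). Plin5, a droplet coat protein, and Pnpla2, the main triglyceride lipase, fell by 1.10 and 0.91 on the log2 scale. These last 3 calls were lost in 4 or 5 of the 6 leave-one-out fits, with adjusted p-values of up to 0.184. Altogether 4 of 25 droplet genes rose and 4 fell, against 4.79% and 8.05% of all genes. The counts were 4 and 2 without chow library 3, 2 and 2 without high-fat library 1, 4 and 1 without chow library 2 or high-fat library 2, and 3 and 1 with the 6 libraries alone. Plin2, the most abundant droplet coat gene of liver, was at 1100.1, 1164 and 1647 CPM and 778, 886 and 872 CPM and was not called (adjusted p 0.275). Pparg was at 7.30, 7.82 and 11.6 CPM and 18.1, 12.3 and 10.3 CPM (adjusted p 0.265), Mogat1, a monoacylglycerol acyltransferase, at 1.92, 1.88 and 3.95 CPM and 9.40, 3.02 and 3.22 CPM (adjusted p 0.114), and neither was called. Plin4 did not overlap, at 25.2, 22.9 and 18.02 CPM and 66.6, 34.9 and 36.3 CPM, but missed the threshold (adjusted p 0.221). G0s2, an inhibitor of Pnpla2, overlapped at 288, 315 and 661 CPM and 291, 327 and 384 CPM.

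Several genes of fatty acid synthesis rose. Srebf1 (ENSMUSG00000020538, chromosome 11, 60199089 to 60222581), which encodes SREBP1, went from 42.0, 22.4 and 29.6 CPM to 108, 119 and 88.2 CPM. The means were 31.3 ± 9.88 CPM and 105 ± 15.4 CPM (SD, n = 3 each), without overlap, and the log2 fold change was 1.74 ± 0.37 (SE, adjusted p 0.000780 by edgeR), called in every leave-one-out fit. Fasn, the fatty acid synthase, went from 94.6, 67.9 and 39.4 CPM to 160.4, 103 and 135 CPM (log2 fold change 0.98 ± 0.34 SE, adjusted p 0.0425 by edgeR). Chow library 3 was the lowest of the 6 in Fasn, and without it the adjusted p was 0.313. Without chow library 2, high-fat library 1 or high-fat library 3 Fasn was not called either (adjusted p 0.0826, 0.162 and 0.0881).

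Thrsp, a lipogenic activator, rose from 7.83, 8.59 and 24.8 CPM to 71.4, 34.8 and 56.4 CPM (log2 fold change 1.98 ± 0.55 SE, adjusted p 0.00941 by edgeR), and Pklr, liver pyruvate kinase, from 67.5, 59.3 and 32.0 CPM to 157, 95.9 and 108 CPM (log2 fold change 1.18 ± 0.37 SE, adjusted p 0.0238 by edgeR). Mlxipl, the glucose-sensing factor ChREBP, rose by 0.68 and Fads1, a fatty acid desaturase, by 0.72 on the log2 scale. Of the 29 genes listed 7 rose and 2 fell, against 4.79% and 8.05% of all genes. The counts were 4 and 2 without chow library 3, and 1 and 0 with the 6 libraries alone. Without high-fat library 1 or 3 the number of rises was 3, and without chow library 2 it was 4. Acacb, an acetyl-CoA carboxylase, was one of the falls. Pklr lost its call without chow library 3 or high-fat library 1 (adjusted p 0.212 and 0.134), Thrsp without chow library 1 or 2 or high-fat library 1 (adjusted p 0.0518 to 0.0552), and Mlxipl and Fads1 in 4 fits each. Scd1, the stearoyl-CoA desaturase and a known SREBP1 target, was at 1859, 2553 and 4213 CPM on chow and 9554, 5052 and 4643 CPM on the high-fat diet. The groups were apart by a small margin and the change was not called (log2 fold change 1.16 ± 0.78 SE, adjusted p 0.361 by edgeR).

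In the cholesterol pathway every call was a rise. Of 26 genes of synthesis and uptake 9 rose and 0 fell, against 4.79% and 8.05% of all genes, with a median log2 fold change of 0.75. Nsdhl, a sterol dehydrogenase, went from 12.7, 11.4 and 6.48 CPM to 40.0, 15.1 and 18.8 CPM (log2 fold change 1.28 ± 0.33 SE, adjusted p 0.00533 by edgeR). The groups were apart, and high-fat library 1 was the highest of the 6. Srebf2, which encodes SREBP2, was at 50.3, 43.3 and 23.3 CPM and 70.3, 46.0 and 59.1 CPM, with overlap of chow library 1 and high-fat library 2 (log2 fold change 0.59 ± 0.18 SE, adjusted p 0.0198 by edgeR). Further risers were Hmgcs1 and Fdft1, early enzymes, Msmo1 and Sc5d, late ones, and Insig1, which holds back SREBP processing.

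The count moved strongly with single libraries. Without chow library 3 it was 1, Insig1, with a median of 0.79, and without high-fat library 1 it was also 1. It was 3 without chow library 2, 4 without high-fat library 3, 5 without chow library 1, 10 without high-fat library 2 and 3 with the 6 libraries alone. The adjusted p of Nsdhl was 0.0903 without chow library 3, and that of Srebf2 0.359. Sqle, squalene epoxidase, overlapped at 14.3, 11.8 and 11.2 CPM and 25.9, 9.26 and 16.4 CPM.

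The start regions of Hmgcs1 and Insig1 are shown because SREBP2 target promoters are known to pair a sterol element with CCAAT boxes. TCACNCCAC, a form of the sterol element, was searched on both strands and stood in 1 of 22 windows of the cholesterol list, that of Hmgcs1, and in 1.22% of all windows. CCAAT, read as ATTGG on the other strand, stood in 17 of 22 windows, in all 6 windows of called members (Hmgcs1, Insig1, Msmo1, Nsdhl, Sc5d and Srebf2) and in 37.3% of all windows. Both motifs were chosen after the values were seen. Capitals mark TCACNCCAC and CCAAT in Hmgcs1 at chr13:119690101-119690400 (plus strand) and CCAAT in Insig1 at chr5:28071162-28071461 (plus strand), GRCm38.p6.
Hmgcs1: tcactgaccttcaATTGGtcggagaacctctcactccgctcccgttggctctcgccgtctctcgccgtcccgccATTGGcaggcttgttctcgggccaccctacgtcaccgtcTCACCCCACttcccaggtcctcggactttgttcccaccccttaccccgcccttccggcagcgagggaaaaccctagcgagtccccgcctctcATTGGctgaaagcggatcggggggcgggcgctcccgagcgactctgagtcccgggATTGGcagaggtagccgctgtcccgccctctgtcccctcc
Insig1: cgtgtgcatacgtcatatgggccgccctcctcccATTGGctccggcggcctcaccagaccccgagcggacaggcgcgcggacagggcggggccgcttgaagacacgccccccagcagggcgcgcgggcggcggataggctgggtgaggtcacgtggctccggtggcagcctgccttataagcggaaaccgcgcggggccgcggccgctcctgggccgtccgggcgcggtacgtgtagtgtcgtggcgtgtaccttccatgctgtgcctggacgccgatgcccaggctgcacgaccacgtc
In Insig1 the letters TCACNCCAC are not in this window.

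Genes of fatty acid oxidation were called at shares near those of all genes: 2 of 38 rose and 3 fell, against 4.79% and 8.05%. Their median log2 fold change was -0.23, against -0.01 over all genes. Ehhadh (ENSMUSG00000022853, chromosome 16, 21761287 to 21787807), the bifunctional enzyme of peroxisomal oxidation, fell from 3667, 3484 and 1960.2 CPM to 582, 689 and 792 CPM, without overlap. Its log2 fold change was -2.14 ± 0.35 (SE, adjusted p 2.00e-05 by edgeR), and it kept its call in every leave-one-out fit. Cyp4a31, an omega-hydroxylase, fell from 119.8, 123 and 69.8 CPM to 21.8, 43.4 and 45.7 CPM (log2 fold change -1.50 ± 0.28 SE, adjusted p 0.000167 by edgeR). Its more abundant relative Cyp4a14 was at 8658, 7211 and 6842 CPM and 2496, 2643 and 4421 CPM, without overlap, and lay just outside the threshold (log2 fold change -1.25 ± 0.46 SE, adjusted p 0.0570 by edgeR). Acot3 and Acot4, thioesterases that release free fatty acids in peroxisomes, rose. Acot3 went from 13.8, 14.0 and 31.9 CPM to 105.7, 128 and 98.4 CPM (log2 fold change 2.48 ± 0.61 SE, adjusted p 0.00335 by edgeR), and Acot4 from 60.7, 66.7 and 106.4 CPM to 189, 197 and 183 CPM (log2 fold change 1.28 ± 0.36 SE, adjusted p 0.00994 by edgeR).

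A hormone and 2 regulators of oxidation were not called. Cpt1a, which admits fatty acids to mitochondria, was at 1178, 1342 and 661 CPM and 778, 755 and 881 CPM, with overlap. Pdk4, which holds back glucose oxidation, was at 18.2, 20.2 and 15.1 CPM and 10.5, 7.38 and 8.43 CPM. Fgf21, a fasting hormone, was at 18.5, 26.5 and 43.5 CPM and 8.85, 7.29 and 16.3 CPM. Pdk4 and Fgf21 were lower in all 3 high-fat mice, with adjusted p-values of 0.379 and 0.207. Without chow library 3 the list had 2 rises and 4 falls, without chow library 1 it had 5 falls, and without chow library 2 or high-fat library 1 it had 2 falls.

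In bile acid synthesis and transport 1 of 26 genes rose and 1 fell, against 4.79% and 8.05% of all genes. Akr1d1, a steroid reductase of the pathway, rose from 62.3, 59.0 and 56.9 CPM to 257, 227 and 226 CPM (log2 fold change 1.99 ± 0.44 SE, adjusted p 0.00123 by edgeR). Cyp7b1, the oxysterol hydroxylase of the acidic pathway and a male-biased gene, fell from 265, 428 and 351 CPM to 85.1, 163 and 131 CPM (log2 fold change -1.46 ± 0.45 SE, adjusted p 0.0204 by edgeR), and was not called without chow library 2 or 3 or high-fat library 1 or 3 (adjusted p 0.0560 to 0.121). Cyp7a1, the rate-limiting enzyme, overlapped at 60.5, 161 and 49.3 CPM and 358, 112 and 131 CPM, and so did Cyp8b1, a bile acid hydroxylase, at 1414, 1836 and 1134 CPM and 1289.6, 704 and 765 CPM.

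Xenobiotic enzymes rose more often than they fell. Of 84 genes 17 rose and 7 fell, against 4.79% and 8.05% of all genes, so the falls were near the share over all genes. The counts were 13 and 5 without chow library 3, 8 and 5 without high-fat library 1, 11 and 7 without chow library 2, and 8 and 5 with the 6 libraries alone. Besides those already described, Cyp2a5, coumarin hydroxylase, went from 129, 158 and 281 CPM to 1049.9, 993 and 1213 CPM (log2 fold change 2.52 ± 0.47 SE, adjusted p 0.000145 by edgeR). Ces1g, a carboxylesterase that also cleaves triglyceride, went from 79.6, 60.3 and 100.2 CPM to 329.6, 315 and 254 CPM (log2 fold change 1.90 ± 0.37 SE, adjusted p 0.000286 by edgeR). Cyp2e1, the ethanol-inducible P450 and the most abundant gene called higher, went from 9709.7, 8830.5 and 10880.4 CPM to 12066, 14837 and 17002 CPM (log2 fold change 0.58 ± 0.18 SE, adjusted p 0.0227 by edgeR), and without chow library 2 or high-fat library 2 or 3 it was not called (adjusted p 0.0880, 0.0648 and 0.139). Nr1i3, the xenosensor CAR, rose from 48.2, 45.0 and 31.3 CPM to 72.5, 83.3 and 94.5 CPM (log2 fold change 1.01 ± 0.24 SE, adjusted p 0.00230 by edgeR), but not without chow library 3 (adjusted p 0.0516).

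Genes of insulin and glucose metabolism changed in both directions. Igfbp1 (ENSMUSG00000020429, chromosome 11, 7197782 to 7202546), which insulin shuts off, fell from 201, 804 and 403 CPM to 24.6, 44.8 and 70.7 CPM (log2 fold change -3.33 ± 0.75 SE, adjusted p 0.00128 by edgeR). G6pc, the glucose-6-phosphatase of glucose release, fell from 526, 932 and 708 CPM to 181, 246 and 296 CPM (log2 fold change -1.59 ± 0.43 SE, adjusted p 0.00716 by edgeR). Both lay below the whole chow range in every high-fat mouse.

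Ppp1r3g, a glycogen-targeting subunit of protein phosphatase, fell from 5.78, 52.4 and 21.3 CPM to 0.810, 1.32 and 1.19 CPM (log2 fold change -4.58 ± 1.21 SE, adjusted p 0.00625 by edgeR). Igfbp2, an IGF-binding protein, fell from 1593, 1657 and 2072 CPM to 516, 1011 and 1267 CPM (log2 fold change -0.93 ± 0.26 SE, adjusted p 0.0105 by edgeR), and not without chow library 3 or high-fat library 1 (adjusted p 0.0903 and 0.156). Gckr, Pygl and Slc2a2, a regulatory protein of glucose metabolism, glycogen phosphorylase and the glucose transporter of liver, rose by 0.60, 0.50 and 0.94, calls that were lost in 4, 4 and 6 of the leave-one-out fits. Of the 30 genes listed 4 rose and 4 fell, against 4.79% and 8.05% of all genes. The counts were 2 and 3 without chow library 3, and 1 and 4 with the 6 libraries alone. With another library left out, 1 or 2 rose and 2 to 5 fell. G6pc was not called without high-fat library 1 (adjusted p 0.0592).

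Clock genes rose more often than they fell. The mice were killed in the morning, per the labels, and the hour of each mouse was not analysed here. Of 22 genes 4 rose and 1 fell, against 4.79% and 8.05% of all genes, with a median log2 fold change of 0.82. With the 6 libraries alone 10 rose and 0 fell. Wee1 (ENSMUSG00000031016, chromosome 7, 110122046 to 110143286), a cell cycle kinase under clock control, rose from 3.58, 3.68 and 7.38 CPM to 23.0, 22.5 and 32.5 CPM (log2 fold change 2.42 ± 0.46 SE, adjusted p 0.000167 by edgeR) and kept its call throughout. Hlf, an activator of D-box genes, rose from 45.1, 50.5 and 47.1 CPM to 80.3, 82.9 and 100.2 CPM (log2 fold change 0.88 ± 0.22 SE, adjusted p 0.00414 by edgeR), also in every fit. Per3, a repressor of the clock, rose from 6.75, 10.5 and 8.87 CPM to 41.3, 38.0 and 35.6 CPM (log2 fold change 2.14 ± 0.64 SE, adjusted p 0.0179 by edgeR), and without chow library 1 or 3 its adjusted p was 0.0571 and 0.0825. The 3 genes did not overlap between diets.

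Per2, a further repressor, rose from 12.8, 16.4 and 14.0 CPM to 31.8, 39.7 and 53.6 CPM (log2 fold change 1.54 ± 0.48 SE, adjusted p 0.0221 by edgeR), and Arntl, the activator BMAL1, fell from 18.6, 9.92 and 4.94 CPM to 4.53, 3.75 and 2.58 CPM (log2 fold change -1.62 ± 0.53 SE, adjusted p 0.0315 by edgeR). Per2 was not called without chow library 1 or 3 or high-fat library 3 (adjusted p 0.0598 to 0.0975), and Arntl not without chow library 1 or any 1 high-fat library (adjusted p 0.0586 to 0.219). Dbp, the best-known output gene, was at 22.8, 38.9 and 51.0 CPM on chow and 126, 112 and 123 CPM on the high-fat diet. Its groups were apart and its change was not called (log2 fold change 1.68 ± 0.99 SE, adjusted p 0.276 by edgeR). The list had 2 rises and 1 fall without chow library 3, with a median of 0.80, and without chow library 1 it had 2 and 0.

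The start region of Per3, at chr4:151044616-151044915 (minus strand) of GRCm38.p6, is shown because Hlf and Dbp bind D-boxes, and its window held TTATGTAA at 2 places, in capitals below. Searched on both strands, these letters stood in 0.611% of all windows and in 1 of 23 windows of the clock list. CACGTG, the E-box, stood in 6 of 23 windows of the list, in 0 of the 4 windows of called members and in 9.65% of all windows.
Per3: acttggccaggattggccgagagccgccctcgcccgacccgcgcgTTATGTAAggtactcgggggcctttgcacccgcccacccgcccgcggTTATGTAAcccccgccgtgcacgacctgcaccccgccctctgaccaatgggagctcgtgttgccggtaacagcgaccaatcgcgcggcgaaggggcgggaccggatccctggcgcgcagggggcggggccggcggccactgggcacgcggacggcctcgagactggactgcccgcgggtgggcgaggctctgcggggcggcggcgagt
The motifs were chosen after the values were seen.

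Acute phase genes fell more often than they rose. Saa1 (ENSMUSG00000074115, chromosome 7, 46740497 to 46742980), serum amyloid A1, was at 1152, 1339 and 1619.6 CPM on chow and at 61.8, 38.4 and 32.2 CPM on the high-fat diet, with means of 1370.1 ± 235 CPM and 44.1 ± 15.6 CPM (SD, n = 3 each). Its neighbour Saa2 was at 883, 1213 and 915 CPM and 45.6, 27.1 and 15.2 CPM. The groups were far apart in both, and the log2 fold changes were -4.96 ± 1.42 (SE, adjusted p 0.0122 by edgeR) for Saa1 and -5.10 ± 1.52 (SE, adjusted p 0.0169 by edgeR) for Saa2. The calls were lost without high-fat library 2 or 3 (adjusted p 0.0613 and 0.0590 for Saa1) and, for Saa2, also without high-fat library 1 (adjusted p 0.0518). The 2 genes are near copies, and how shared reads were counted is not given in the sources used here.

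Metal-binding and other acute phase genes fell as well. Mt2, a metallothionein, was at 7.59, 9.03 and 8.15 CPM on chow and 0.930, 0.147 and 0.302 CPM on the high-fat diet (log2 fold change -4.14 ± 0.87 SE, adjusted p 0.000614 by edgeR). Mt1 went from 249, 288 and 366 CPM to 75.3, 18.4 and 37.6 CPM (log2 fold change -2.78 ± 0.62 SE, adjusted p 0.00130 by edgeR), and Fgl1, a fibrinogen-like protein of liver, from 757, 715 and 1015 CPM to 221, 219 and 306 CPM (log2 fold change -1.74 ± 0.39 SE, adjusted p 0.00128 by edgeR). These 3 genes kept their calls in every leave-one-out fit. Hamp, the iron hormone hepcidin, fell from 979, 754 and 876 CPM to 282, 416 and 174 CPM (log2 fold change -1.58 ± 0.53 SE, adjusted p 0.0372 by edgeR), but lost its call in 4 of these fits, with up to 0.167 without high-fat library 3. Serpina3k, an abundant protease inhibitor, fell from 8827, 9292 and 10057 CPM to 3008, 6137 and 4638 CPM (log2 fold change -1.03 ± 0.24 SE, adjusted p 0.00172 by edgeR), while its neighbour Serpina3m, which overlaps it on the same strand, rose by 0.66, a call lost in 4 of the leave-one-out fits (adjusted p 0.0628 to 0.187).

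Of the 30 acute phase genes 9 fell and 1 rose, against 8.05% and 4.79% of all genes, with a median log2 fold change of -0.69. Without chow library 3, 7 fell and 0 rose (median -0.68). With another library left out, 5 to 8 fell. Orm2, an orosomucoid gene, overlapped at 26.5, 23.7 and 15.8 CPM and 17.6, 6.99 and 5.07 CPM. Gadd45g and Nr4a1, stress-induced and immediate early genes, were among the largest falls, from 40.7, 106.3 and 112 CPM to 4.98, 5.59 and 10.6 CPM (log2 fold change -3.61 ± 0.77 SE, adjusted p 0.000701 by edgeR) and from 16.8, 25.4 and 42.4 CPM to 1.93, 3.44 and 2.13 CPM (log2 fold change -3.49 ± 0.95 SE, adjusted p 0.00789 by edgeR). Nr4a1 was not called without chow library 3 or high-fat library 1 (adjusted p 0.0546 and 0.0511).

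Genes of amino acid breakdown and the urea cycle fell more often than they rose. Of 43 genes 12 fell and 3 rose, against 8.05% and 4.79% of all genes. Without chow library 3 the counts were 11 and 1, against 2.54% and 2.11%. Asns (ENSMUSG00000029752, chromosome 6, 7675169 to 7693254), asparagine synthetase and a target of the amino acid response factor ATF4, fell from 10.8, 10.8 and 7.70 CPM to 0.517, 0.626 and 0.996 CPM (log2 fold change -3.77 ± 0.54 SE, adjusted p 1.42e-06 by edgeR), and stood in the list of stress genes. Asl, the argininosuccinate lyase of the urea cycle, fell from 1681, 1947 and 1441 CPM to 535, 506 and 672 CPM (log2 fold change -1.56 ± 0.26 SE, adjusted p 2.94e-05 by edgeR). Sdsl, a serine dehydratase relative, fell from 38.3, 41.3 and 47.0 CPM to 11.4, 9.15 and 9.78 CPM (log2 fold change -2.06 ± 0.46 SE, adjusted p 0.00112 by edgeR). The groups were apart in all 3 genes, which stayed called in every leave-one-out fit.

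Got1, an aspartate aminotransferase, fell by 1.98 and Cps1, the entry enzyme of the urea cycle, by 0.89 on the log2 scale. Cps1 overlapped, with chow library 3 low, at 5639, 6115 and 2332 CPM on chow against 1903, 2585 and 3123 CPM. Agxt2, a mitochondrial aminotransferase, rose from 88.0, 96.4 and 137 CPM to 182, 175 and 167 CPM (log2 fold change 0.70 ± 0.15 SE, adjusted p 0.000617 by edgeR). Mat1a, which makes S-adenosylmethionine and was among the 5 most abundant genes that fell, was at 9985, 10346 and 5308 CPM and 4569, 5274 and 6329.7 CPM (log2 fold change -0.66 ± 0.20 SE, adjusted p 0.0155 by edgeR), and chow library 3 lay within the high-fat range. Mat1a was not called without chow library 1 or 2 or high-fat library 1 or 2 (adjusted p 0.0574 to 0.110), and Cps1 not without chow library 1 or 2 or high-fat library 1 (adjusted p 0.0567 to 0.106). Without high-fat library 1 the list had 7 falls, without chow library 2 it had 8, and with the 6 libraries alone it had 7 falls and 1 rise.

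Of 29 stress genes 3 rose and 2 fell, against 4.79% and 8.05% of all genes. With the 6 libraries alone 1 rose and 1 fell. Besides Asns, the ATF4 partner Atf5 fell from 664, 868 and 477 CPM to 376, 265 and 317 CPM (log2 fold change -1.07 ± 0.21 SE, adjusted p 0.000345 by edgeR), a gene that overlaps Il4i1 and Nup62 on the opposite strand. The risers were Nqo1, Gclc and Gclm, all known NRF2 targets, with log2 fold changes of 0.68, 0.83 and 0.37. Gclc went from 201, 181 and 154 CPM to 301, 347 and 305 CPM (adjusted p 0.00973). Without chow library 3 none of these 3 was called (adjusted p 0.162, 0.0909 and 0.103), Nqo1 and Gclm also not without high-fat library 1 (adjusted p 0.294 and 0.144), and Nqo1 not without chow library 1 (adjusted p 0.102).

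Falls were frequent among subunits of oxidative phosphorylation, and these calls moved with chow library 3. Of 76 oxidative phosphorylation subunits 43 fell and 0 rose, against 8.05% and 4.79% of all genes, with a median log2 fold change of -0.46. Uqcrh, a subunit of complex III, shows the pattern: it was at 115, 125 and 334 CPM on chow and at 104, 103 and 110.1 CPM on the high-fat diet. Chow library 3 was more than double the other chow libraries, which lay slightly above the high-fat range. The call (log2 fold change -0.86 ± 0.17 SE, adjusted p 0.000410 by edgeR) was lost without that library, where the log2 fold change was -0.18 (adjusted p 0.550). Ndufs7, of complex I, was at 117, 121 and 251 CPM and 80.1, 78.2 and 93.3 CPM (log2 fold change -0.96 ± 0.18 SE, adjusted p 0.000143 by edgeR), and Ndufs4 at 57.7, 64.8 and 145 CPM and 54.6, 48.7 and 54.4 CPM (log2 fold change -0.76 ± 0.15 SE, adjusted p 0.000346 by edgeR), and both were called in all leave-one-out fits but that without chow library 3 (adjusted p 0.0752 and 0.379).

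Without chow library 3, 0 of the 76 subunits were called and the median was -0.03. With the 6 libraries alone 0 were called too. The count was 59 without chow library 1, 52 without chow library 2, 27 without high-fat library 2, and 29 with offsets for gene length in all libraries, an alternative chosen after seeing the data that called 11.9% of all genes (4.86% higher, 7% lower). Ribosomal and proteasomal genes, counted after their values were seen, did likewise. 73 of 80 cytosolic ribosomal protein genes fell, against 8.05% of all genes, and 5 fell without chow library 3, against 2.54%. In 71 of the 80 every high-fat mouse lay below every chow mouse, against 13.8% of all genes. Of 74 mitochondrial ribosomal protein genes 32 fell, 2 without that library, 49 without chow library 1 and 16 without high-fat library 2. Of 38 proteasome subunits 26 fell, and 8 without chow library 3. With the 6 libraries alone 0 cytosolic and 0 mitochondrial ribosomal protein genes and 1 proteasome subunit were called lower. The median of the cytosolic ribosomal genes was -0.73 with all libraries and -0.33 without chow library 3, and their summed level was 13668 to 26349 CPM on chow and 9759.8 to 12078 CPM on the high-fat diet.

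Lipoprotein genes were touched by the same library. Of 29 genes 2 rose and 5 fell, against 4.79% and 8.05% of all genes. Without chow library 3 the counts were 1 and 2, against 2.11% and 2.54%. They were 0 and 4 without high-fat library 1, and 0 and 0 with the 6 libraries alone. Apoa1, the main protein of high density lipoprotein and the most abundant gene that fell, was at 12708, 12885 and 29532 CPM on chow and 8775, 10189.6 and 10809.8 CPM on the high-fat diet (log2 fold change -0.89 ± 0.23 SE, adjusted p 0.00493 by edgeR). Chow library 3 lay at more than double the other 2, and without it the adjusted p was 0.429. Apoc4, which encodes apolipoprotein C-IV, was at 402, 435 and 1024 CPM and 326, 336 and 351 CPM (log2 fold change -0.88 ± 0.23 SE, adjusted p 0.00562 by edgeR, adjusted p 0.519 without chow library 3), and Apom, a carrier of sphingosine phosphate, at 269, 275 and 467 CPM and 115, 180.4 and 194 CPM (log2 fold change -1.05 ± 0.23 SE, adjusted p 0.000926 by edgeR, adjusted p 0.0612 without it).

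Fibrosis, macrophage and interferon lists gave few calls, while 4.79% of all genes rose and 8.05% fell. Of 38 matrix genes 1 rose: Lgals1, galectin 1, was at 7.33, 11.6 and 34.7 CPM on chow and 85.5, 25.4 and 25.9 CPM on the high-fat diet, with chow library 3 inside the high-fat range (log2 fold change 1.35 ± 0.43 SE, adjusted p 0.0247 by edgeR), and its call was lost without chow library 1 or 2 or high-fat library 1 (adjusted p 0.148, 0.117 and 0.519). Col1a1, the main fibrillar collagen, overlapped at 5.44, 14.3 and 4.06 CPM and 20.9, 9.04 and 12.9 CPM (adjusted p 0.193). Of 43 macrophage and inflammation genes 0 rose and 2 fell. Cd9, a membrane protein of lipid-laden macrophages and other cells, fell from 16.5, 15.1 and 18.5 CPM to 7.63, 6.63 and 6.10 CPM (log2 fold change -1.30 ± 0.32 SE, adjusted p 0.00295 by edgeR) in every leave-one-out fit. Gpnmb, a glycoprotein of lipid-associated macrophages, was at 0.675, 4.73 and 5.34 CPM and 1.48, 1.29 and 0.836 CPM (log2 fold change -1.57 ± 0.50 SE, adjusted p 0.0254 by edgeR), overlapped, and lost its call in 5 of those fits, with up to 0.228 without chow library 3. Adgre1, the macrophage marker F4/80, was at 19.6, 22.0 and 24.5 CPM and 15.5, 26.0 and 21.3 CPM, and Trem2, a lipid-sensing macrophage receptor, at 0.949, 1.80 and 0.983 CPM and 1.02, 0.939 and 0.978 CPM, both with overlap.

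Of 37 interferon response genes 1 rose, against 4.79% of all genes. Gbp7, a guanylate-binding protein, went from 6.62, 6.13 and 6.99 CPM to 12.9, 15.3 and 12.5 CPM (log2 fold change 1.04 ± 0.37 SE, adjusted p 0.0484 by edgeR), a call lost whichever library was left out. Yet 19 of the 37 did not overlap between the groups, all of them higher on the high-fat diet, against 13.9% of all genes, and the median log2 fold change was 0.49, or 0.77 without chow library 3. Gbp10, which is no member of that list, rose from 0.784, 1.16 and 1.50 CPM to 10.6, 9.50 and 5.76 CPM (log2 fold change 2.91 ± 0.58 SE, adjusted p 0.000320 by edgeR) and kept its call throughout. Of 25 cell cycle genes 3 rose, against 4.79% of all genes, and 0 with the 6 libraries alone. Foxm1, a proliferation factor, was at 0.310, 0.331 and 0.192 CPM and 1.41, 0.405 and 0.427 CPM (log2 fold change 1.41 ± 0.34 SE, adjusted p 0.00240 by edgeR), E2f1, a cell cycle transcription factor, at 2.26, 2.10 and 2.82 CPM and 6.68, 3.63 and 3.52 CPM (log2 fold change 0.95 ± 0.27 SE, adjusted p 0.0109 by edgeR), and Ccnd1, cyclin D1, at 11.2, 11.6 and 4.66 CPM and 25.2, 23.0 and 28.1 CPM (log2 fold change 1.48 ± 0.51 SE, adjusted p 0.0431 by edgeR). Without high-fat library 1 none of the 3 was called (adjusted p 0.336, 0.203 and 0.0851), and Ccnd1 not without chow library 3 or high-fat library 2 or 3 either (adjusted p 0.0725 to 0.270).

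Markers of other cell types were mostly not called. 0 of 9 endothelial, 8 stellate, 8 macrophage, 5 cholangiocyte, 5 T cell, 5 B cell, 9 neutrophil and 6 erythroid markers tested were called in either direction. Among 7 plasma cell markers Mzb1 fell, but not without high-fat library 3 (adjusted p 0.0804), and among the 8 hepatocyte markers Apoa1 fell. Summed macrophage markers were 290.2 to 407 CPM on chow and 234 to 327 CPM on the high-fat diet. Of 8 adipocyte markers 3 were among the genes of the table, which did not list Adipoq, Lep, Retn, Plin1 or Slc36a2, and they summed to 14.4 to 23.7 CPM on chow and 29.0 to 46.4 CPM on the high-fat diet. Cfd, the complement factor adipsin that fat cells secrete, was at 1.02, 0.681 and 5.84 CPM on chow and 16.8, 33.3 and 17.4 CPM on the high-fat diet (log2 fold change 3.17 ± 0.75 SE, adjusted p 0.00202 by edgeR). Fabp4, a fatty acid carrier of fat cells, was at 8.41, 9.03 and 12.8 CPM on chow and 8.25, 5.36 and 5.12 CPM on the high-fat diet and was not called. Adrb3, their adrenergic receptor, was at 5.53, 4.64 and 5.05 CPM and 6.05, 7.80 and 6.47 CPM and was not called either. Whether fat tissue in the samples had a part in the rise of Cfd was not tested.

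Further genes were named for the size of their change or their abundance. Car3 (ENSMUSG00000027559, chromosome 3, 14863512 to 14872523), carbonic anhydrase 3, a male-biased gene also known from fat and muscle, rose from 249, 229 and 646 CPM to 3792, 3766 and 2955 CPM, with means of 375 ± 235 CPM and 3504 ± 476 CPM (SD, n = 3 each). The groups were apart, chow library 3 was the highest on chow, and the log2 fold change was 3.23 ± 0.68 (SE, adjusted p 0.000623 by edgeR). Themis, a T cell signalling gene, rose from 1.00, 1.62 and 1.26 CPM to 16.4, 10.6 and 4.68 CPM (log2 fold change 3.02 ± 0.45 SE, adjusted p 3.96e-06 by edgeR), while 0 of 5 T cell markers were called. Dsg1c, a desmoglein of cell junctions, rose from 1.86, 1.25 and 1.77 CPM to 11.1, 14.4 and 10.5 CPM (log2 fold change 2.88 ± 0.54 SE, adjusted p 0.000150 by edgeR). All 3 kept their calls in every leave-one-out fit. Other abundant genes that rose were Aldh2, the aldehyde dehydrogenase of ethanol breakdown (log2 fold change 0.61 ± 0.14 SE, adjusted p 0.00108 by edgeR), Aldh1a1, which makes retinoic acid (log2 fold change 0.83 ± 0.29 SE, adjusted p 0.0465 by edgeR), and Sord, sorbitol dehydrogenase (log2 fold change 1.01 ± 0.34 SE, adjusted p 0.0343 by edgeR). The calls of Aldh1a1 and Sord were lost whichever library was left out, and that of Aldh2 was kept in all 6 fits.

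The next question was whether the diet effect of the males differed from that of C57BL/6J females. The difference of the 2 effects was called in 435 genes (3.04% of all), 112 with the more positive effect in males (0.782%) and 323 with the more negative (2.25%). The diet effect in females alone was called in 12.5% of genes, 5.83% higher and 6.63% lower. Chow library 3 of the males weighed heavily, since 27 genes were called without it. 1298 and 943 were called without chow males 1 and 2, 56 and 154 without chow females 1 and 2, 184 and 63 without high-fat females 1 and 2, and 219, 172 and 257 without high-fat males 1, 2 and 3. The mouse numbers of the chow males and the high-fat females shared a range, while those of the high-fat males and of the chow females lay in ranges of their own, and these ranges cannot be told apart from the groups.

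Cyp2b9 had a difference of 6.28 ± 0.70 (SE, adjusted p 1.27e-09 by edgeR). Females were already high on chow, at 387, 425 and 515 CPM, and lay at 718, 696 and 634 CPM on the high-fat diet, so the high-fat males, at up to 178 CPM, stayed below every female. Mup17, a urinary protein gene, had a difference of -6.36 ± 0.81 (SE, adjusted p 1.28e-07 by edgeR): it fell in males, from 418, 644 and 875 CPM to 39.9, 369 and 118 CPM, and rose in females, from 2.90, 2.94 and 4.66 CPM to 84.5, 56.2 and 92.9 CPM. Both differences stood without chow male 3 (adjusted p 1.01e-07 and 8.45e-07). The male fall of Mup17 on its own was not called without chow library 3 or high-fat library 1 or 3 (adjusted p 0.0946, 0.125 and 0.0769).

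Saa1 had a difference of -7.69 ± 1.91 (SE, adjusted p 0.0193 by edgeR), with chow females at 9.58, 10.1 and 15.8 CPM and high-fat females at 98.0, 49.0 and 88.6 CPM. Chow males therefore stood alone among the 4 groups, since no library of the other 3 exceeded 98.0 CPM. Saa2 had a difference of -7.57 ± 2.03 (SE, adjusted p 0.0277 by edgeR) and the same order. Fos, an immediate early gene, was at 4.23, 4.25 and 20.6 CPM and 1.34, 1.91 and 1.99 CPM in males and at 6.12, 6.85 and 10.4 CPM and 60.8, 86.0 and 209 CPM in females, a difference of -6.39 ± 1.43 (SE, adjusted p 0.00936 by edgeR). A1bg, a female-biased plasma protein gene, was below 1 CPM in every male and rose from 10.6, 18.4 and 15.3 CPM to 121, 151 and 99.8 CPM in females, a difference of -5.97 ± 1.64 (SE, adjusted p 0.0309 by edgeR). These 4 differences were not called without chow male 3 (adjusted p 0.0870, 0.136, 0.143 and 0.206). The differences themselves were then -7.56 for Saa1, -7.65 for Saa2, -5.22 for Fos and -5.78 for A1bg.

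**Figure D4:**
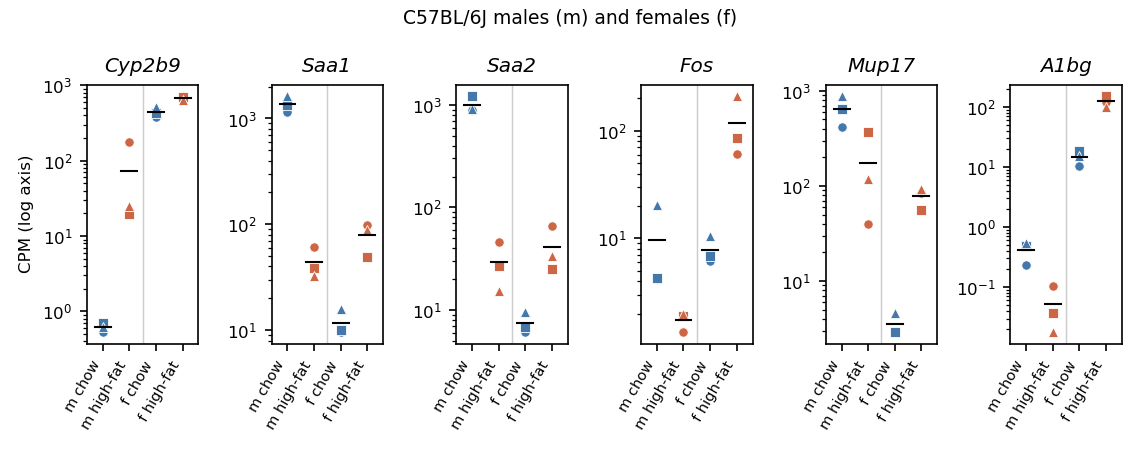
Each panel shows 1 gene, with the CPM of each of the 3 libraries of a group on a log axis and the mean as a black line, for C57BL/6J males and females on chow (blue) and on the high-fat diet (orange). Saa1 and Saa2 are high in the chow males only, and Cyp2b9 in high-fat males lies between chow males and females.

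The last question was whether males of C57BL/6J responded differently from males of the other 8 strains. In the labels the mouse numbers of C57BL/6J and those of the other 8 strains belong to separate series, which cannot be told apart from strain. The difference from the mean effect of those strains was called in 927 genes (6.47% of all), 314 more positive (2.19%) and 613 more negative (4.28%) in C57BL/6J. It was called in 140 genes without chow library 3, of which 76 were more positive, in 376 and 467 without high-fat libraries 1 and 2, and in 1569 without chow library 1. NZO/HlLtJ had 1 male on the high-fat diet, and without that strain the count was 926. Scd1 had a difference of 4.15 ± 0.91 (SE, adjusted p 0.00270 by edgeR). In C57BL/6J its change was 1.16 and not called, while the mean change of the other strains was -2.99, and in each of the other 8 strains every chow male lay above every high-fat male. Of those strains CAST/EiJ, DBA/2J and NOD/ShiLtJ passed the test on their own. In NOD/ShiLtJ, for example, it lay between 489.9 and 832 CPM on chow and between 22.3 and 31.8 CPM on the high-fat diet.

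Cyp2b9 had a difference of 6.54 ± 0.61 (SE, adjusted p 9.39e-13 by edgeR). In males of A/J it was high on both diets, between 193 and 574 CPM, and in 129S1/SvImJ, CAST/EiJ, DBA/2J, PWK/PhJ and WSB/EiJ no male exceeded 1 CPM. NOD/ShiLtJ lay between 7.51 and 19.3 CPM on chow and between 20.3 and 40.6 CPM on the high-fat diet, which was not called (adjusted p 0.284). In NZO/HlLtJ it lay between 30.0 and 58.7 CPM on chow and at 172 CPM in the 1 high-fat male, a log2 change of 2.09 that was not called (adjusted p 0.102). Slc22a29 differed by 4.09 ± 1.15 (SE, adjusted p 0.0197 by edgeR), and in 129S1/SvImJ it also rose, by 2.97 (adjusted p 0.00710). Moxd1 differed by -5.41 ± 0.90 (SE, adjusted p 0.000137 by edgeR): it also fell in PWK/PhJ, by 4.08 (adjusted p 0.000135), and rose in WSB/EiJ, by 6.10 (adjusted p 2.96e-06). The WSB/EiJ males lay between 0.113 and 0.388 CPM of Moxd1 on chow, on few reads, and between 1.68 and 30.9 CPM on the high-fat diet. The level on chow ran from under 1 CPM in A/J, NOD/ShiLtJ and WSB/EiJ to between 318 and 387 CPM in CAST/EiJ.

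Saa1 and Saa2 differed by -5.10 ± 1.47 (SE, adjusted p 0.0226 by edgeR) and -5.02 ± 1.56 (SE, adjusted p 0.0363 by edgeR). Chow males of 129S1/SvImJ, A/J, CAST/EiJ, DBA/2J, NOD/ShiLtJ and PWK/PhJ had at most 128 CPM of Saa1, against at least 1152 CPM in C57BL/6J, while the highest mice of NZO/HlLtJ and WSB/EiJ reached 24202 and 865 CPM. The differences of Cyp2b9, Moxd1 and Scd1 were called without chow library 3 (adjusted p 1.86e-09, 4.77e-05 and 0.0191). Those of Saa1, Saa2 and Slc22a29 were not called (adjusted p 0.101, 0.125 and 0.0967). The differences themselves were then -4.97, -5.08 and 3.75.

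**Figure D5:**
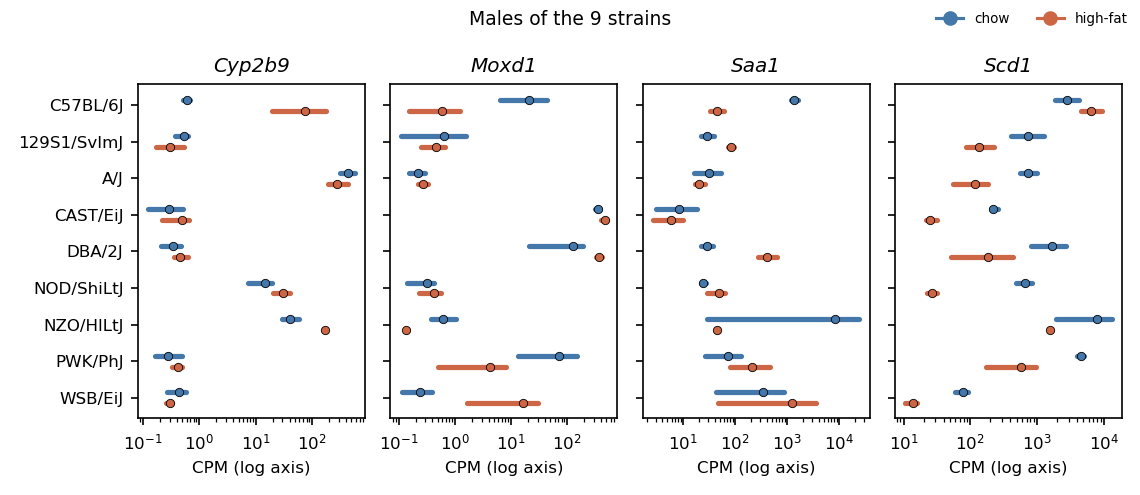
For males of each strain a line gives the lowest to the highest CPM and the point the mean, on chow (blue) and on the high-fat diet (orange), on a log axis, with 3 mice per group and 1 for NZO/HlLtJ on the high-fat diet. Scd1 lies higher on the high-fat diet in C57BL/6J, where the change was not called, and lower in the other 8 strains. The mean of Saa1 on chow is 1370.1 CPM in C57BL/6J and 8096 CPM in NZO/HlLtJ, whose mice run from 28.4 to 24202 CPM.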

How the data were processed

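The deposited table gave read counts per gene for 106 mouse liver libraries, 3 per strain, sex and diet with 1 exception. RNA libraries were made with a SMARTER mRNA-Seq kit, per the labels' protocols. The submitters' processing notes name FastQC, STAR 2.73a and edgeR 3.24.3. The counter, strand setting and genome build are not given in the sources used here. GENCODE M21 (GRCm38) named 14321 of the 14330 genes. The 3 summary lines that name no gene were left out. In the 6 libraries they held 16.7% to 21.4% of the reads as not uniquely aligned, 4.48% to 6.42% as outside genes and 5.08% to 5.60% as ambiguous. Chow library 3 had the highest share of the 6 both as not uniquely aligned (21.4%) and as outside genes (6.42%).

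A single model of 36 group means was fitted to all 106 libraries with edgeR 4.0.16 (R 4.3.3) quasi-likelihood F tests and TMM factors, so all groups share the estimate of spread. P-values were adjusted by Benjamini-Hochberg over all genes with a threshold of 0.05. Each SE of a log2 fold change was derived from the test, as its absolute value divided by the square root of the F statistic. CPM values are counts scaled to library size after TMM factors. Chow males enter all 3 comparisons, which therefore share these controls. Totals of the 106 libraries ran from 35534924 to 73577221 counts. Alternatives were DESeq2 1.42.0, limma 3.58.1, other scalings, smaller sets of libraries and offsets for gene length. The tests were tried on simulated counts with known changes.

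Genes named were a panel, the 12 largest rises and falls, the 3 called members of smallest p in each list, the 6 largest differences in each of the other comparisons and the 5 most abundant called genes per direction (mean of the higher group). The 12 largest rises and falls were taken only among called genes whose groups did not overlap in CPM. They also needed a mean of at least 2 CPM in the higher group and a name not of a predicted gene or pseudogene. The 6 largest differences were taken among genes called in that comparison, with like limits on level and name. Other list members were named after their values were seen. Members and lists were chosen with earlier results of these data known. The labels name each library by mouse, and replicate numbers follow accession order. Some members of the lists are counted but not reported here.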

Additional observations from a re-analysis of the deposited data

Results flagged for a closer look

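In 12 values the diet effect of C57BL/6J males differed from that of another group by a test of the difference itself, and all were chosen as the largest such differences. Against C57BL/6J females the log2 differences were 6.28 for Cyp2b9, -7.69 for Saa1, -7.57 for Saa2, -6.39 for Fos, -6.36 for Mup17 and -5.97 for A1bg. Cyp2b9 and Mup17 passed the test without chow male 3, and the other 4 genes did not, with adjusted p-values of 0.0870 to 0.206. Their log2 differences were then -7.56 for Saa1, -7.65 for Saa2, -5.22 for Fos and -5.78 for A1bg. In Fos and A1bg the female change was called on its own (3.93 ± 1.02 and 3.07 ± 0.77, SE), and the male change was not.

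Against the mean of the males of 8 other strains the log2 differences were 4.15 for Scd1, 6.54 for Cyp2b9, -5.10 for Saa1, 4.09 for Slc22a29, -5.41 for Moxd1 and -5.02 for Saa2. Without chow male 3, Scd1, Cyp2b9 and Moxd1 passed the test and the others did not (adjusted p 0.0967 to 0.125). The log2 differences of those 3 genes were then -4.97 for Saa1, -5.08 for Saa2 and 3.75 for Slc22a29. Scd1 differed through a fall in the other strains, whose mean change was -2.99, beside a change of 1.16 ± 0.78 (SE) in C57BL/6J that was not called. Both sets of differences rest on the same 3 chow males and the same 3 high-fat males.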

How the results depend on the processing

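No paired analysis was possible because the labels give no replicate numbers that groups share. Of the 14330 genes all passed edgeR's filter on low counts, so that setting changed nothing. The count of 1840 genes for the diet effect in males was 375 with the 6 libraries alone and ran from 666 (without chow library 3) to 2272 (without chow library 1) with 1 library left out. It was 2039 with DESeq2, 1667 with limma, 1851 with RLE factors, 1600 with library totals alone, 1743 with male libraries alone, 1347 with C57BL/6J libraries alone and 1699 with offsets for gene length, an alternative chosen after seeing the data. Library totals alone moved the median of all genes to 0.08 on the log2 scale.

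The 435 genes of the sex difference became 153 with C57BL/6J libraries alone, 738 with DESeq2, 274 with length offsets, 288 with limma and 290 with library totals alone, and 27 to 1298 with 1 library left out. The 927 genes of the strain difference became 140 to 1569 with 1 library left out. The cause of these moves was not tested.

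Of 100 genes named by rule, 74 were called. Outside the leave-one-out fits, 57 of the 666 values of these 74 kept their direction but lost the call, 33 of them with the 6 libraries alone, and in the leave-one-out fits 90 of 444 did. None changed sign. Signs turned in 5 genes that were not called. With limma, Cyp2b10 had a log2 fold change of -0.00836, and with library totals alone Slco1a1 had 0.0508 and Adgre1 0.0186. With 1 library left out, G0s2 ran from -0.55 to 0.147, Cyp2b10 from -0.61 to 0.57, Slco1a1 from -0.44 to 0.43, Adgre1 from -0.26 to 0.116 and Trem2 from -0.51 to 0.0177. Levels under 1 CPM rest on few reads, and 3 mice per diet limit the precision of every value.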
